A study of Mus musculus with 2 samples.

Results

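The 10 genes described here encode proteins of the heart-type sarcomere or of heart muscle cells, and their transcripts were followed in whole lungs of mouse embryos. They were chosen by name, with earlier results of these data known: Myl7, Myl4, Myh7, Myh6, Actc1, Tnnt2, Tnni1, Tnnc1, Pln and Nppa. The platform annotation assigned 16 probe sets to exactly 1 of these genes, of 18193 genes with such a probe set in all. The study compared TAZ-deficient embryos with their wild type littermates at E15.5 (the embryonic day), each group being 1 pool of 4 total RNA samples on 1 Affymetrix mouse expression array. Wwtr1 encodes TAZ, a coactivator of transcription that the Hippo pathway keeps in check. How the TAZ deficiency was made is not stated in the sources used here, nor is the sex of the embryos, and both groups were otherwise labelled alike. With 1 pool on 1 array per group, no difference below has a replicate check, a standard deviation or a test.

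The sarcomere is the contractile unit of striated muscle, in which myosin thick filaments pull on actin thin filaments and the troponin complex makes that pull depend on calcium. Heart muscle uses its own set of myosin, actin and troponin genes, several of which are shared with slow or embryonic skeletal muscle. In the mouse, heart muscle continues from the left atrium along the pulmonary veins into the lung, so a lung can hold heart-type transcripts without any attached heart tissue. The labels do not say how the lungs were trimmed. In whole-tissue RNA, fewer cells of a type and less RNA per cell cannot be told apart.

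Values are the deposited signal units, scaled by the authors to a common mean on each array. A floor was set at 15.2 units, the median of all non-control signals, and a gene was called measured when either array was above it. By that rule 12032 genes were measured. Wwtr1 followed the labels, its 3 probe sets reading 11.3, 6.4 and 3.9 in the TAZ-deficient pool and 791.2, 222.9 and 176.9 in the wild type pool. Whether these probes lie inside the disrupted part is not stated in the sources used here. The tissue label was borne out by its markers, with 10 of 10 embryonic lung markers measured, against 12032 of all 18193 genes. Of the 10, 0 were 1.5-fold different, against 1.46% of all measured genes lower and 1.26% higher. The surfactant gene Sftpc read 4121.5 in the TAZ-deficient pool and 4142.5 in the wild type pool. Scgb3a2, with the lowest ratio of the list, read 1057.4 in the TAZ-deficient pool and 1408.5 in the wild type pool (1.33-fold lower). Etv5, a transcription factor of the distal epithelium, read 1620.5 in the TAZ-deficient pool and 1420.4 in the wild type pool.

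Of the 10 heart-type genes, 7 were measured, and all 7 read lower in TAZ-deficient lung than in wild type lung at the probe set that stands for the gene, the one with the highest mean log2 signal. Myl7, Myh7 and Tnnt2 were at least 1.5-fold lower, Tnni1, Actc1 and Tnnc1 were between 1.24-fold and 1.38-fold lower, and Myl4 was 1.07-fold lower at its brighter probe set. A difference of at least 1.5-fold downward was seen for 3 of the 7, against 176 of all 12032 measured genes (1.46%), and upward for 0 of the 7, against 152 of all (1.26%). A ratio below 1 was seen for 7 of the 7 and for 52.9% of all measured genes. The median log2 ratio (TAZ-deficient to wild type) was -0.46 for the 7 genes and -0.01 for all measured genes. At 2-fold the count was 0 of the 7 in either direction, against 0.0748% of all measured genes lower and 0.116% higher. Each of the 7 genes was above the floor on both arrays, so none had entered the count through the wild type array alone. The genes were chosen with earlier results of these data known, so these shares do not stand as an independent comparison.

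**Figure D1:**
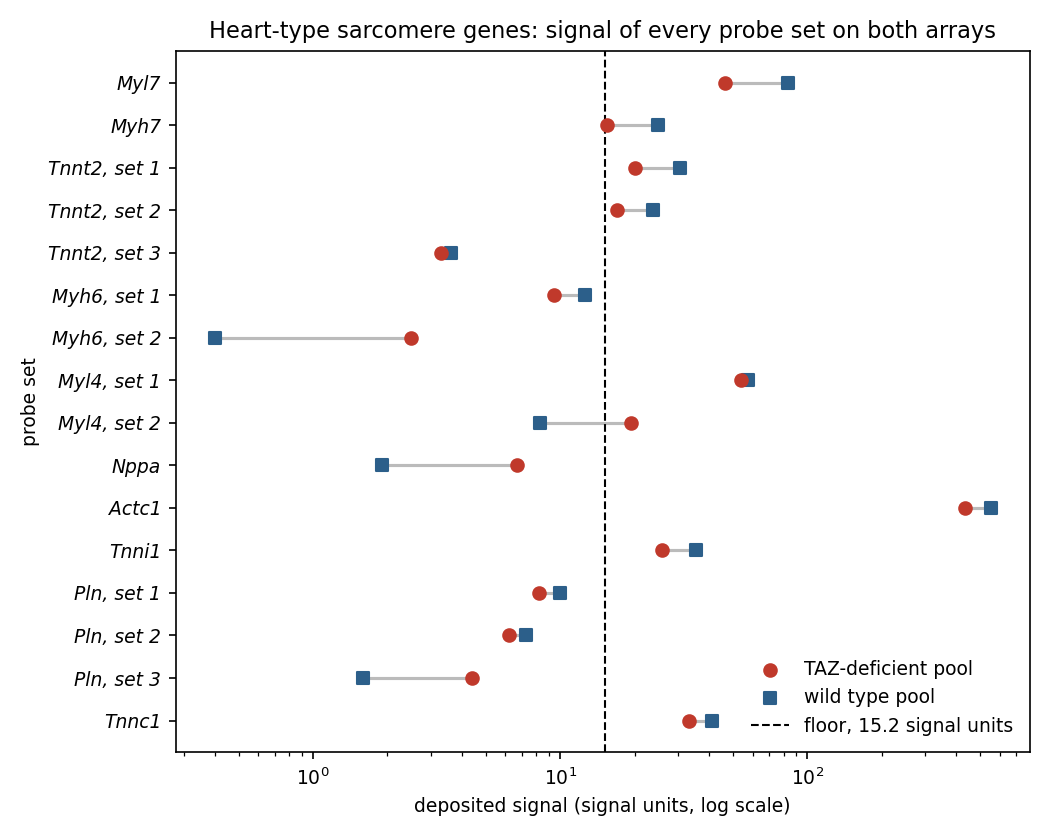
Deposited signal (log axis) of each of the 16 probe sets, 1 row each, with circles for the TAZ-deficient pool, squares for the wild type pool and a dashed line at the floor of 15.2 signal units. Right of the floor on both arrays are 8 probe sets, and in each of them the circle lies left of the square; Myl4 set 2 crosses the floor in the other direction.

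The promoters of 4 of these genes are shown because the genes read lower together and because TAZ acts through TEAD factors, whose M-CAT element takes its name from muscle genes such as chicken cardiac troponin T. Each window runs from 250 bases before to 50 bases after a RefSeq transcript start (build GRCm38.p6), written 5′ to 3′ on the gene's own strand. All 10 genes matched a window by symbol. Capitals mark the M-CAT core CATTCC, which reads GGAATG where it lies on the opposite strand, and the CArG box, the element bound by serum response factor. The windows are chr11:5898733-5899032 (minus strand) for Myl7, chr14:54994577-54994876 (minus strand) for Myh7, chr1:135836084-135836383 (plus strand) for Tnnt2 and chr2:114052826-114053125 (minus strand) for Actc1.
Myl7: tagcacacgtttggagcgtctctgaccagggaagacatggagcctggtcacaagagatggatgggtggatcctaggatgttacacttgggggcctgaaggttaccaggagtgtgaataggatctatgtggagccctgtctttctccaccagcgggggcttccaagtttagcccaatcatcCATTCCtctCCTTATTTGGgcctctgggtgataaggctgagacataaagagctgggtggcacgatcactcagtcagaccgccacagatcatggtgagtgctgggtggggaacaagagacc
Myh7: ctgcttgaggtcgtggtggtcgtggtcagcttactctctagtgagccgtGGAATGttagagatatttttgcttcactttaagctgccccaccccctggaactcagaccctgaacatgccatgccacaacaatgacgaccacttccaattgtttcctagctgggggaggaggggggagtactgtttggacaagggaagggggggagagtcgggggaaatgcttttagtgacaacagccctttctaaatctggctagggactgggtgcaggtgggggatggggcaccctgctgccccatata
Tnnt2: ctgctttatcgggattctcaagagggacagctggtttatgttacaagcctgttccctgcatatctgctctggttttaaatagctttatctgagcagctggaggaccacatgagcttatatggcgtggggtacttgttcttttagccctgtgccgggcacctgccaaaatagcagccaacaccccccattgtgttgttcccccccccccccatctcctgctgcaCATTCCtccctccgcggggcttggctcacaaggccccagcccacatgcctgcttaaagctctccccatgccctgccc
Actc1: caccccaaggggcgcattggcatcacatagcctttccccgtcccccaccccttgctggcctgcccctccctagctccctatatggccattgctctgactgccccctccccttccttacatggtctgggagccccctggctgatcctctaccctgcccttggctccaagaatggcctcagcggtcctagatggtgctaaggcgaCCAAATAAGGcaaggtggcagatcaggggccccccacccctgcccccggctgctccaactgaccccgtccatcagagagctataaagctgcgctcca
In the Myl7 window the first run of capitals is the M-CAT core, at bases 181 to 186 counted from the 5′ end, and the second is a CArG box at bases 190 to 199. The Myh7 window holds the core at bases 50 to 55 on the opposite strand, and the Tnnt2 window at bases 224 to 229. The Actc1 window holds a CArG box at bases 204 to 213 and no M-CAT core.

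The M-CAT core, searched on both strands, was present in a window of 5 of the 10 genes, which are Myl7, Myh7, Tnnt2, Myh6 and Tnnc1. Of the 7 measured genes, 4 held it: the 3 that were at least 1.5-fold lower, and Tnnc1. Tnni1, Actc1 and Myl4 did not. The windows were read after the ratios were known, and a part of TEAD factors in the ratios was not tested. Over all 27025 genes with a window, 16.6% held the core, and over all 32851 windows 14.7% did. Myh7 and Tnnt2 have a second annotated start each, whose window held no core. Of 11 smooth muscle genes with a window 5 held it, and of 53 other heart muscle genes 12 (22.6%). Among measured genes that had a window it was present in 17.7% of the 130 that were at least 1.5-fold lower and in 14.4% of all 9727. A CArG box was found for 2 of the 10 genes and for 1.81% of all genes. The GATA motif (AGATAA, also with T as its first base, G as its last base, or both) was found for 5 of the 10, namely Myl7, Tnnt2, Myh6, Nppa and Pln, and for 33.0% of all genes. The MEF2 motif was found for 0 of the 10 and for 0.636% of all genes, and no motif overlapped another in these windows. A match is a description of the letters in the window and not evidence of a bound site.

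Thick filament genes included the lowest ratio of the set. Myl7, the regulatory myosin light chain of atrial muscle, read 46.2 in the TAZ-deficient pool and 83.6 in the wild type pool, on its only probe set. It was thus 1.81-fold lower, a log2 ratio of -0.86, and 30 of the 12032 measured genes, Myl7 included, had a ratio as low or lower. Its signal was 3.04 times the floor in the TAZ-deficient pool and 5.50 times the floor in the wild type pool. Both values were under the 75th percentile (106.3 units), where ratios scatter more, and their distance from background was not tested. Myl7 is the member with the CATTCC core and the CArG box 3 bases apart in the window printed above.

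Myl4, the essential light chain of atrial and of embryonic muscle, did not follow Myl7. Its brighter probe set read 53.6 in the TAZ-deficient pool and 57.4 in the wild type pool (log2 ratio -0.10), and 30.3% of measured genes had a ratio as low. Its other probe set read 19.3 in the TAZ-deficient pool and 8.3 in the wild type pool, which is at least 1.27-fold higher, since the wild type value lies below the floor. The 2 probe sets of Myl4 therefore disagreed in sign, by 0.44 on the log2 scale. With the median over its measured probe sets, the log2 ratio of Myl4 was 0.12.

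Myh7, the slow myosin heavy chain that predominates in the embryonic ventricle and is also made in slow skeletal muscle, read 15.4 in the TAZ-deficient pool and 24.9 in the wild type pool. The difference was 1.62-fold lower (log2 ratio -0.69), with 88 measured genes as low or lower. The TAZ-deficient value lay just above the floor of 15.2. On the log2 scale after adding 10 units to every signal, the ratio of Myh7 was -0.46 and no longer 1.5-fold. Myh6, the fast heavy chain of atrial and adult mouse heart muscle, was not measured, its probe sets reading 9.4 and 2.5 in the TAZ-deficient pool and 12.6 and 0.4 in the wild type pool. The annotation gave another 2 probe sets to both Myh6 and Myh7, and these were left out of the set. They read 2.6 and 0.4 in the TAZ-deficient pool and 9.8 and 3.3 in the wild type pool, all below the floor.

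The 4 measured thin filament genes read lower as well, each by less than Myl7 and Myh7 and by more than Myl4. Tnnt2, cardiac troponin T, which ties the troponin complex to tropomyosin, read 20.1 in the TAZ-deficient pool and 30.6 in the wild type pool at its brightest probe set. It was 1.52-fold lower there (log2 ratio -0.61), and 153 measured genes were as low or lower. A second probe set read 17.0 in the TAZ-deficient pool and 23.7 in the wild type pool (log2 ratio -0.48), so that both measured probe sets of Tnnt2 pointed the same way and differed by 0.13. The third read 3.3 in the TAZ-deficient pool and 3.6 in the wild type pool, below the floor. Both measured probe sets carry a suffix that was grouped here as marking shared probes, _a_at at the brightest and _x_at at the second. Tnnt2 was under 1.5-fold with the median over its measured probe sets (log2 ratio -0.54) and after adding 10 units to every signal (-0.43).

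Tnni1, the slow skeletal troponin I that the embryonic heart uses before it switches to Tnni3, read 25.7 in the TAZ-deficient pool and 35.4 in the wild type pool. It was 1.38-fold lower (log2 ratio -0.46), on 1 probe set with a shared-transcript suffix. Tnnc1, the calcium-binding troponin C of heart and slow skeletal muscle, read 33.3 in the TAZ-deficient pool and 41.2 in the wild type pool. It was 1.24-fold lower (log2 ratio -0.31), and 7.81% of measured genes had a ratio as low. The 3 troponin subunits of the set thus all read lower, and only Tnnt2 was past 1.5-fold.

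Actc1, cardiac alpha actin, gave the largest number of signal units of the set and the value least touched by background. It read 435.1 in the TAZ-deficient pool and 551.9 in the wild type pool, 1.27-fold lower (log2 ratio -0.34). Ratios lie closer to 1 among bright genes, as the plot of ratio against signal shows. Of the 6732 genes above the 75th percentile (106.3 units) on both arrays, 111 (1.65%) had a ratio as low as that of Actc1. The muscle actin genes are alike in coding sequence, and this probe set was not tested for signal from the smooth muscle or skeletal forms, of which Acta2 read 2701.5 in the TAZ-deficient pool and 2749.2 in the wild type pool.

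**Figure D2:**
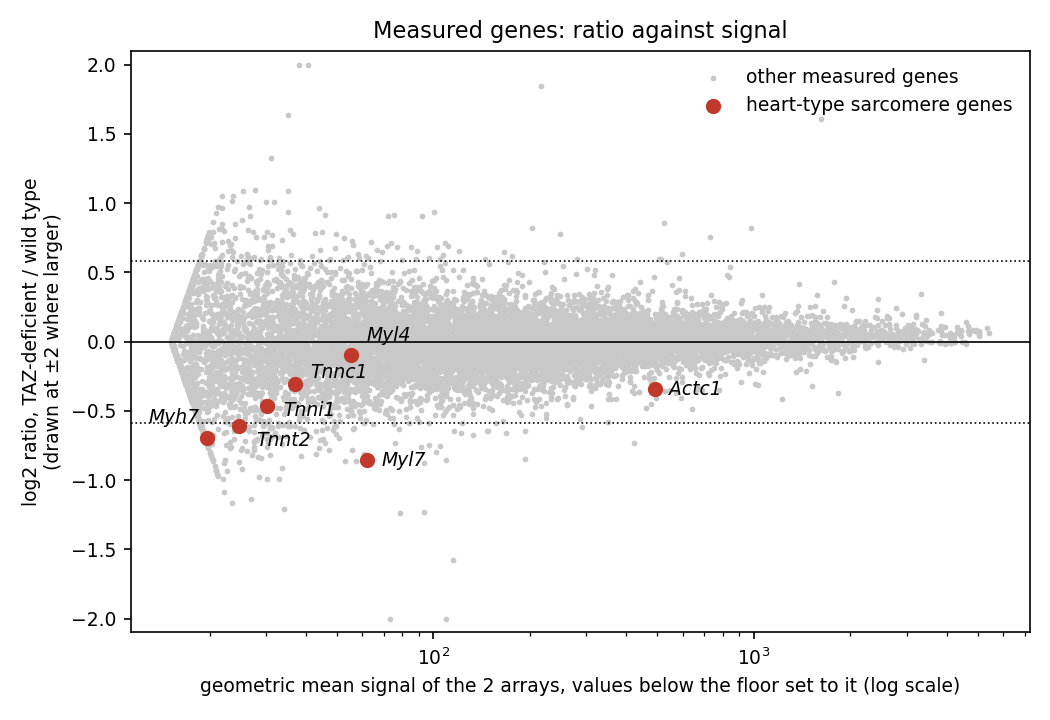
Log2 ratio of TAZ-deficient to wild type signal against the geometric mean signal of the 2 arrays (log axis) for the 12032 measured genes, with 4 genes beyond 2 in size drawn at the axis limit and dotted lines at 1.5-fold. The 7 heart-type genes, in red, all lie below 0; Myh7 sits on the slanting edge that the floor sets, and Actc1 lies under the narrow band of bright genes.

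The other 6 measured genes of the set were under the 75th percentile on both arrays, where ratios scatter more. Of the 4943 measured genes in that range, 3.08% were at least 1.5-fold lower, 2.53% at least 1.5-fold higher, and 55.6% had a ratio below 1. Within it, 0.465% of genes had a ratio as low as that of Myl7, 1.52% as low as Myh7, 2.67% as low as Tnnt2, 5.99% as low as Tnni1 and 14.0% as low as Tnnc1. The one measure of error within these arrays comes from probe sets of the same gene. It was taken over 5201 genes whose 2 brightest usable probe sets both exceeded the floor on both arrays. The standard deviation of a single probe set's log2 ratio, estimated from the difference within each pair, was 0.19. It was 0.23 for the 2871 genes with a dimmer probe set. Differences within a pair spread more widely than these values. The measure holds no variation between embryos, pools or arrays.

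Calcium and hormone genes of the set were not measured. Pln, phospholamban, the inhibitor of the calcium pump of the sarcoplasmic reticulum, had 3 probe sets that read 8.2, 6.2 and 4.4 in the TAZ-deficient pool and 10, 7.3 and 1.6 in the wild type pool. Nppa, atrial natriuretic peptide, a hormone of embryonic and atrial heart muscle, read 6.7 in the TAZ-deficient pool and 1.9 in the wild type pool. All these values lie below the floor, where order carries no information, and a level under background is not shown to be absent. In all, 7 of the 16 probe sets were at or below the floor on both arrays, with signals between 0.4 and 12.6.

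The set was put beside 72 other heart muscle genes in 5 lists, of which 67 had a probe set and 32 were measured. Of the 32, 20 had a ratio below 1 and 12 above it, 1 was at least 1.5-fold lower and 2 at least 1.5-fold higher, and the median log2 ratio was -0.06. Only 21 of the 32 were above the floor on both arrays. The ratios of the others are bounds, which the floor makes smaller in size. The heart-type set had 7 of 7 below 1 and a median of -0.46. With 1 array per group the difference between these sets cannot be tested, and both were chosen with earlier results of these data known. Ckm, muscle creatine kinase, was at least 1.53-fold lower (10.6 in the TAZ-deficient pool and 23.3 in the wild type pool), but its second probe set read 19.6 in the TAZ-deficient pool and 10.1 in the wild type pool. Tmod1, which caps the pointed end of thin filaments in heart muscle and red cells, was 1.57-fold higher (29.6 in the TAZ-deficient pool and 18.9 in the wild type pool). Mybpc3, cardiac myosin-binding protein C, was at least 1.55-fold higher (23.6 in the TAZ-deficient pool and 13.5 in the wild type pool).

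By role, medians of the other heart muscle genes lay on both sides of 0. The filament list had a median log2 ratio of -0.07 on 5 measured genes, the Z-disc and junction list -0.24 on 8, the calcium and electrical list 0.10 on 7, the secreted and energy list -0.01 on 5, and the regulator list -0.22 on 7. Many of the genes behind these values are not particular to heart. Atp2a2, the calcium pump that Pln inhibits, read 926.6 in the TAZ-deficient pool and 865.0 in the wild type pool, and Jph2, which ties the plasma membrane to the sarcoplasmic reticulum, read 67.3 in the TAZ-deficient pool and 49.9 in the wild type pool. The tropomyosin gene Tpm1 read 1227.5 in the TAZ-deficient pool and 1299.0 in the wild type pool. Smpx, a small muscle protein of the costamere, read 224.8 in the TAZ-deficient pool and 271.8 in the wild type pool, and Nexn, an actin-binding Z-disc protein, read 266.7 in the TAZ-deficient pool and 266.0 in the wild type pool. Tbx5, a transcription factor of heart and lung mesenchyme, read 93.1 in the TAZ-deficient pool and 116.8 in the wild type pool, and its second probe set read 58.0 in the TAZ-deficient pool and 97.0 in the wild type pool. The brightest regulator, Mef2c, read 191.8 in the TAZ-deficient pool and 199.3 in the wild type pool.

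Several genes made mainly in heart muscle were below the floor on both arrays. Tnni3, the adult cardiac troponin I, read 4.6 in the TAZ-deficient pool and 13.0 in the wild type pool. Nkx2-5, the heart homeobox factor, read 11.0 in the TAZ-deficient pool and 7.8 in the wild type pool. Of 5 genes typical of ventricular muscle, 2 were measured, with a median log2 ratio of -0.27. One was Hey2, a transcription factor of the Notch pathway that is also made outside the heart, which read 18.3 in the TAZ-deficient pool and 23.8 in the wild type pool. The other was the ventricular light chain Myl3, above the floor in the wild type pool alone (10.4 in the TAZ-deficient pool and 16.9 in the wild type pool). Myl2, the other ventricular light chain, was not measured, reading 0.6 in the TAZ-deficient pool and 6.4 in the wild type pool. Of 8 genes typical of atrial or pulmonary vein muscle, 6 had a probe set and 2 were measured, with a median of 0.03. These were Tbx5 (log2 ratio -0.33) and the potassium channel gene Kcnj3 (at least 0.40), so the median is the midpoint of 2 values of opposite sign. Kcnj3 was above the floor in the TAZ-deficient pool alone (20.0 in the TAZ-deficient pool and 10.6 in the wild type pool). Sln, the atrial regulator of the calcium pump, read 4.7 in the TAZ-deficient pool and 2.2 in the wild type pool. The origin of the heart-type transcripts in ventricular, atrial or pulmonary vein muscle was not tested.

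**Figure D3:**
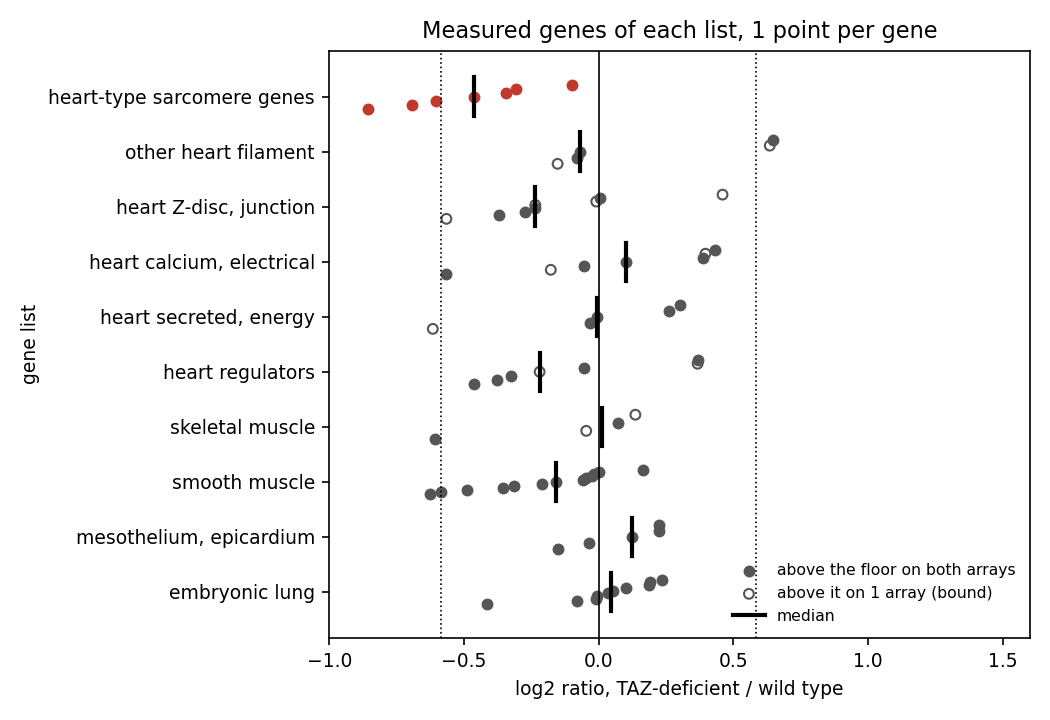
Log2 ratio of TAZ-deficient to wild type signal for the measured genes of each list, 1 point per gene, with a black bar at the median, open points where only 1 array was above the floor and dotted lines at 1.5-fold. The heart-type sarcomere genes (top row, red, median -0.46) all lie left of 0, while the points of the 5 other heart muscle lists lie on both sides of it.

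Markers of other muscle and of neighbouring tissues were read in the same way. Of 18 skeletal muscle markers, 4 were measured, with a median log2 ratio of 0.01. Only 2 of the 4 were above the floor on both arrays, and the ratios of the others are bounds. The summed signal over all 18 was 139.2 in the TAZ-deficient pool and 161.0 in the wild type pool. Of the 18, 14 were at or below the floor on both arrays, so the order of these sums carries little information. Tnnt1, the slow skeletal troponin T, alone passed 1.5-fold (1.53-fold lower, 23.8 in the TAZ-deficient pool and 36.3 in the wild type pool), on a probe set with a shared-transcript suffix. Myog and Myod1, the defining regulators of skeletal muscle, read 6.1 and 9.9 in the TAZ-deficient pool and 1.0 and 12.3 in the wild type pool, below the floor. The part of skeletal muscle in the values of Myh7, Tnni1 and Tnnc1 was not tested.

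Smooth muscle, which also uses Pln and can make Actc1, was read from 14 genes. Of 13 measured, 12 had a ratio below 1 and 2 were at least 1.5-fold lower, with a median log2 ratio of -0.16 and a summed signal of 8862.8 in the TAZ-deficient pool and 9398.1 in the wild type pool over all 14. The 2 were Synpo2, an actin-binding protein (1.55-fold, 62.9 in the TAZ-deficient pool and 97.2 in the wild type pool), and calponin, Cnn1 (1.501-fold, 79.0 in the TAZ-deficient pool and 118.6 in the wild type pool). With median centring, quantile normalization or loess the count past 1.5-fold was 1. The part of smooth muscle in the lower value of Actc1 was not tested.

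Mesothelium and epicardium genes had a median log2 ratio of 0.12 on 5 measured genes, and 0 of them were 1.5-fold different. Upk3b, a uroplakin of mesothelium, read 280.3 in the TAZ-deficient pool and 239.9 in the wild type pool, and Krt19 read 441.9 in the TAZ-deficient pool and 490.8 in the wild type pool. Of 25 genes of liver, thymus, oesophagus, thyroid and neural tissue, 22 had a probe set and 6 were measured. Of the 6, 5 had a ratio below 1 and 0 were 1.5-fold different. Their median log2 ratio was -0.13. The liver median was -0.01, from albumin alone (10.7 in the TAZ-deficient pool and 15.3 in the wild type pool). That value is a bound, since albumin was above the floor in the wild type pool alone. The median was 0.12 for thymus (Cd8a alone) and -0.29 for neural genes (Gap43 and Stmn2). For oesophagus and thyroid it was -0.18 (Krt6a and Cnfn, both above the floor in the wild type pool alone). No marker of these lists was listed at 0 on either array. How much heart tissue or pulmonary vein each of the pooled lungs carried was not recorded in the labels, and its part in the lower values of the heart-type genes cannot be told apart from the genotype with 1 pool per group.

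The direction of the measured heart-type genes was kept under other processing, with Myl4 as the exception. Much of this was fixed in advance. For genes above the floor on both arrays, a lower floor or added units cannot change the sign. Where a gene has a single probe set, the choice among probe sets cannot either. All settings use the same arrays, so they are no independent check of the direction. Myl7 was negative under each of the 7 alternatives in which it was measured (log2 ratio -0.86 to -0.74), and Actc1 under all 8 (-0.36 to -0.33). Myh7 ranged from -0.69 to -0.46, Tnnt2 from -0.61 to -0.43, Tnni1 from -0.46 to -0.35 and Tnnc1 from -0.31 to -0.24. Myl4 ranged from -0.10 to 0.12. At a floor of the 75th percentile, Actc1 was the only one of the 10 genes still measured.

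**Figure D4:**
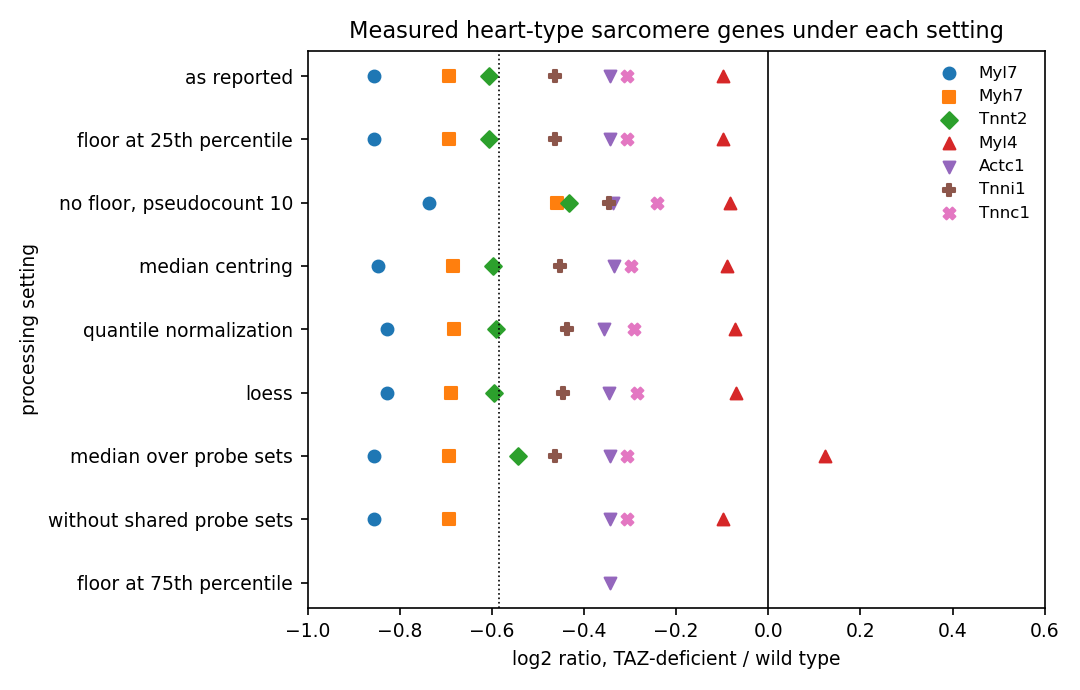
Log2 ratio of TAZ-deficient to wild type signal for each measured heart-type gene (1 symbol per gene) as reported and under 8 other settings, with a solid line at 0 and a dotted line at 1.5-fold lower. Each gene keeps its side of 0 except Myl4 with the median over probe sets (0.12), and a gene without a symbol in a row was not measured there.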

How the data were processed

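Per the submitters' processing notes, GCOS and MAS5 were used, without a version. The authors deposited 1 linear intensity per probe set and array. Each array had a mean of 100.001 after removal of the lowest and highest 2%. RNA was isolated from frozen tissue and labelled with biotin after poly(A) priming, per the labels' protocols. No detection call was used here, and the genome build of the probe design is not given in the sources used here.

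Of 45101 probe sets, 34945 named 1 gene in the platform annotation. For 34741 of these the Entrez identifier was found in GRCm38.p6 RefSeq, and the symbol was taken from there, whether or not it differed. A gene was represented by its probe set with the highest mean log2 signal. Values below the floor were set to it before the log2 ratio was taken, and a fold with 1 side below the floor is a bound. Named genes were the 10 genes of the set, Wwtr1 and, per other list, each gene past 1.5-fold, or failing that the 2 brightest. Others, such as Tnni3, Nkx2-5, Myl2, Sln, Tpm1, Acta2, Myog and Myod1, were added as examples once values were known. The genes and lists were chosen with earlier results of these data known. The fold counting was tested on simulated data, with changes of at least 2-fold in genes well above the floor. It was not tested at 1.5-fold or on genes near the floor. Loess used a span of 0.4 (statsmodels 0.14.6), and 8 alternatives were run.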

Additional observations from a re-analysis of the deposited data

How the results depend on the processing

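No paired analysis was possible because each group holds 1 array. Values and medians were judged against the disagreement between probe sets, and every count below is of measured genes. With the floor at the 25th percentile (4.3 units), where values near background count, the heart-type genes had a median log2 ratio of -0.38 over 10 genes with 1 (Nppa) at least 1.5-fold higher. The other heart muscle genes then had a median of -0.14 over 59, with 15 at least 1.5-fold lower, 8 higher and 37 below 0, skeletal muscle genes a median of -0.27 over 10, with 3 lower, 1 higher and 6 below 0, neighbouring tissues 3 lower, 2 higher and 12 below 0 of 17, and all genes 1145 lower and 838 higher of 16126. At a floor of the 75th percentile (106.3 units) the heart-type set was Actc1 alone (median -0.34, 0 at least 1.5-fold lower, 1 below 0), the other heart muscle genes had 0 lower, 0 higher and 5 below 0 of 7, smooth muscle genes 0 lower, and all genes 12 lower, 14 higher and 3621 below 0 of 7085. With 10 units added in place of the floor, the heart-type median was -0.35 and 1 gene (Myl7) was 1.5-fold lower. Other heart muscle genes then had 2 lower and 0 higher, smooth muscle genes 0 lower, skeletal muscle genes 0 lower with a median of -0.10, and neighbouring tissues 1 lower with a median of -0.35. Smooth muscle genes had 1 lower under median centring, quantile normalization and loess. With the median over probe sets, other heart muscle genes had 0 lower and the heart-type set had 2 (Myl7 and Myh7). Without shared probe sets the heart-type median was -0.34 over 5 genes with the same 2 lower, the smooth muscle median was -0.26 over 10, and skeletal muscle genes had 0 lower and 0 below 0 of 2. The causes of these shifts were not tested beyond the change in which genes count as measured. Signal over background limits the set: 6 of its 7 measured genes lie under the 75th percentile of signals on both arrays.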
